A study of Mus musculus with 15 samples.

Results

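Apolipoprotein M (ApoM) was added to cultured mouse podocytes that lack Col4a3, and 3 ApoM libraries were set against 3 vehicle libraries of the same cells. These 6 libraries, of 15 in the series, were chosen by treatment label, without use of any measured value. Podocytes are the epithelial cells that wrap the filtering capillaries of the kidney, and loss of Col4a3, which encodes a collagen IV chain of their basement membrane, is a model of Alport syndrome. The cells of both groups are Col4a3-/- podocytes, so the deletion is shared by treated and control libraries. ApoM was given for 24 h. Another 3 libraries of Col4a3-/- podocytes received CYM50358, which blocks S1PR4, a receptor for sphingosine-1-phosphate, also for 24 h. They serve the direct comparison of the agents, are shown beside some vehicle and ApoM values, and enter 1 alternative fit of all 9 treatment libraries. The remaining 6 libraries are vehicle libraries of Col4a3+/+ and Col4a3-/- podocytes in a table normalized on its own. The labels give neither an ApoM dose, a carrier lipid, the vehicle composition, a clone or a passage, nor whether replicates were grown as separate cultures. The p-values therefore measure the spread between these libraries, which may be technical.

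ApoM is a small lipocalin that circulates mostly on high-density lipoprotein and carries sphingosine-1-phosphate (S1P) to its receptors. S1P signals through a family of G protein-coupled receptors, S1PR1 to S1PR5, which act on the actin cytoskeleton, junctions and survival pathways. Cells also sense their sterol load: when endoplasmic reticulum sterol is low, SREBP2 enters the nucleus and switches on genes of cholesterol synthesis and uptake, and when sterol is plentiful these genes fall together. A separate sensor, the integrated stress response, raises translation of the transcription factors ATF4 and ATF5 and, through them, genes of amino acid uptake and synthesis.

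Levels are given as signal, which is CPM (a depth-scaled read count) rescaled once more by the authors, for libraries in the order replicate 1, 2 and 3. Vehicle libraries held 57735687 to 62201989 reads and ApoM libraries 60919831 to 77779920. Replicates of a group differed beyond sampling noise (chi-square per degree of freedom 12.2 to 29.2), and the first 2 principal components, with 26.2% and 23.7% of the variance, spread the vehicle libraries as far apart as any pair. Mitochondrially encoded genes took 2.60% to 3.18% of the signal with vehicle and 3.17% to 3.20% with ApoM (exact permutation test, two-sided, p = 0.2, where 3 against 3 cannot go below 0.1). Between 19379 and 19854 genes had a read with vehicle and between 20029 and 20515 with ApoM (exact permutation test, two-sided, p = 0.1). Signal of Col4a3 remained, at 24.4, 18.4 and 16.6 with vehicle and 22.1, 23.4 and 22 with ApoM, while Col4a3+/+ libraries had a signal of 938, 1049 and 1268 in their own table. Which exons were removed is not stated in the labels, so these values do not test the deletion.

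Of the podocyte markers, Tcf21 had no read in any of the 6 libraries and Nphs1 (nephrin) and Ptpro were too low to test, while Synpo, Podxl, Wt1 and Thsd7a were present; 13 of 17 podocyte markers were tested. The cells are therefore called Col4a3-/- podocytes by label, without the defining slit diaphragm transcripts. Among 13 endothelial markers 4 were tested, and among 11 leukocyte markers 2, with summed levels of 30.9 to 35.4 and 4.7 to 9.2 in vehicle libraries and 32.0 to 35.1 and 5.8 to 6.7 in ApoM libraries. Of 14 mesangial and fibroblast markers, named contractile and fibroblast below, 8 were tested. Col1a2, Cspg4, Itga8, Pdgfra, Ren1 and Thy1 were too low to test. The list's summed level was 9551.1 to 11232.5 with vehicle and 8417.1 to 9905.2 with ApoM, mostly Acta2 and Tagln. Podocyte markers summed to 5041.3 to 5692.8 and 5019.6 to 5524.0. Parietal and tubular markers, of which 10 of 17 were tested, summed to 733.4 to 801.9 and 711.9 to 750.7.

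The comparison of ApoM with vehicle asks what an added carrier of S1P changes in Col4a3-/- podocytes. Few genes were called, and an uncalled gene is not thereby shown to be unchanged. Log2 fold changes of all tested genes ran from -0.78 to 0.68 in the fit, short of 2-fold either way. The scale of the fit understates low genes, so a 2-fold change in their signal is not excluded. Of 13839 genes tested with limma, 6 were called at an adjusted p under 0.05, which is 0.0434% of those tested. Atf5 and Mt1 rose, and Spp1, Scd1, Cp and Efemp1 fell, each without overlap between the groups. The median absolute log2 fold change over all tested genes was 0.0712, with a median standard error of 0.0998. Groups failed to overlap with ApoM above vehicle for 5.45% of tested genes and with ApoM below for 5.22%. An unadjusted p under 0.05 was reached by 755 genes, 2.72% of those tested with higher and 2.74% with lower values after ApoM.

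Among the called genes, the largest fall was that of Spp1, the gene of osteopontin, a secreted phosphoprotein that binds integrins and is released by injured kidney cells (ENSMUSG00000029304.15, chromosome 5, 104582984 to 104588916, mm39). Its signal was 239, 256 and 341 in the vehicle libraries and 185, 147 and 168 in the ApoM libraries. Vehicle replicate 3 stood apart from the other vehicle libraries, yet even the lowest vehicle value lay above the highest ApoM library. The log2 fold change was -0.73 (SE 0.10, 95% interval -0.93 to -0.52, limma adjusted p = 0.0055), a level 39.6% lower. In the authors' deposited table Spp1 had nearly the same log2 fold change (-0.74) but an adjusted p of 0.178.

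Scd1 encodes stearoyl-CoA desaturase, which makes monounsaturated fatty acids (ENSMUSG00000037071.4, chromosome 19, 44382894 to 44396318). It stood at 118, 117 and 133 with vehicle and 87.9, 79.4 and 93.1 with ApoM, and the groups did not overlap. The fall was 29.2% (log2 fold change -0.50, SE 0.069, limma adjusted p = 0.0055). Cp, the gene of the copper-carrying ferroxidase ceruloplasmin (ENSMUSG00000003617.17, chromosome 3, 20011218 to 20063309), went from 105, 92.5 and 96.5 to 74.8, 63.3 and 70.6. Every ApoM library was below the lowest vehicle library by more than the whole vehicle range, and the log2 fold change was -0.49 (SE 0.071, limma adjusted p = 0.0061). Efemp1 encodes fibulin-3, an extracellular matrix glycoprotein (ENSMUSG00000020467.16, chromosome 11, 28803204 to 28876743). Its levels of 149.6, 151 and 142 with vehicle and 122, 113 and 114 with ApoM gave the smallest of the called changes, a fall of 21% (log2 fold change -0.34, SE 0.057, limma adjusted p = 0.0239).

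Of the genes that rose, Atf5, a bZIP transcription factor of the integrated stress response (ENSMUSG00000038539.16, chromosome 7, 44461680 to 44466082), measured 105, 111 and 103 with vehicle and 129, 152 and 151 with ApoM. ApoM replicate 1 was the lowest of its group and still above every vehicle library. The rise was 34.5% (log2 fold change 0.43, SE 0.067, 95% interval 0.29 to 0.57, limma adjusted p = 0.0126). Mt1, the gene of metallothionein 1, a small cysteine-rich protein that binds zinc and copper (ENSMUSG00000031765.9, chromosome 8, 94905710 to 94906955), measured 32.1, 30.9 and 35.1 with vehicle and 42.6, 47.4 and 46.7 with ApoM. Its log2 fold change was 0.47 (SE 0.078, limma adjusted p = 0.0239), and the gap between the groups was wider than the range within either.

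**Figure D1:**
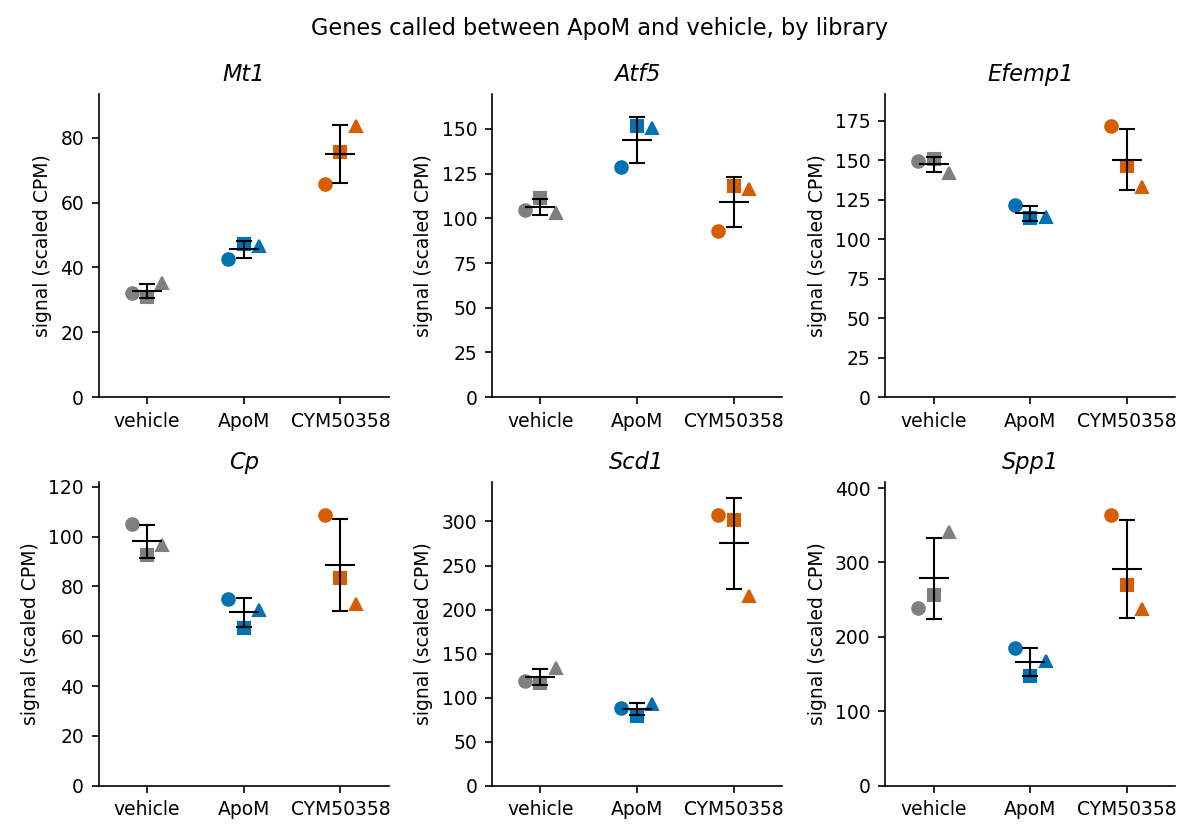
Signal (scaled CPM, linear axis from 0) of the 6 called genes in each vehicle, ApoM and CYM50358 library of Col4a3-/- podocytes; circles, squares and triangles are replicates 1, 2 and 3, and bars are mean ± SD (n = 3). Atf5 and Mt1 lie above vehicle in each ApoM library, and Efemp1, Cp, Scd1 and Spp1 lie below it.

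These 6 calls depended on few libraries. Without ApoM replicate 2, limma called 0 genes, and the limma adjusted p was 0.15 for each of Cp, Scd1 and Spp1, 0.35 for Atf5 and 0.44 for both Efemp1 and Mt1. Without ApoM replicate 3 Scd1 alone was called. Mt1 and Efemp1 also lost their call without ApoM replicate 1 or vehicle replicate 2. Without vehicle replicate 1 there were 12 calls, which added Aldh1l2, Cdh13, Cyp51, Egr1, Fdps and Gm48529, and without vehicle replicate 2 there were 5, with Malat1 as an added call. On reads recovered from the signal, edgeR called 3 genes (Spp1, Scd1 and Cp; 0.0186% of 16140) and DESeq2 18 (0.171% of 10546). Shares of all genes at an unadjusted p under 0.05 moved as well. Without vehicle replicates 1, 2 and 3 in turn, 3.69%, 3.25% and 2.31% of tested genes had higher and 3.69%, 3.36% and 2.63% lower values, and without ApoM replicates 1, 2 and 3, 2.36%, 1.82% and 2.3% higher and 2.53%, 1.98% and 2.59% lower.

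**Figure D2:**
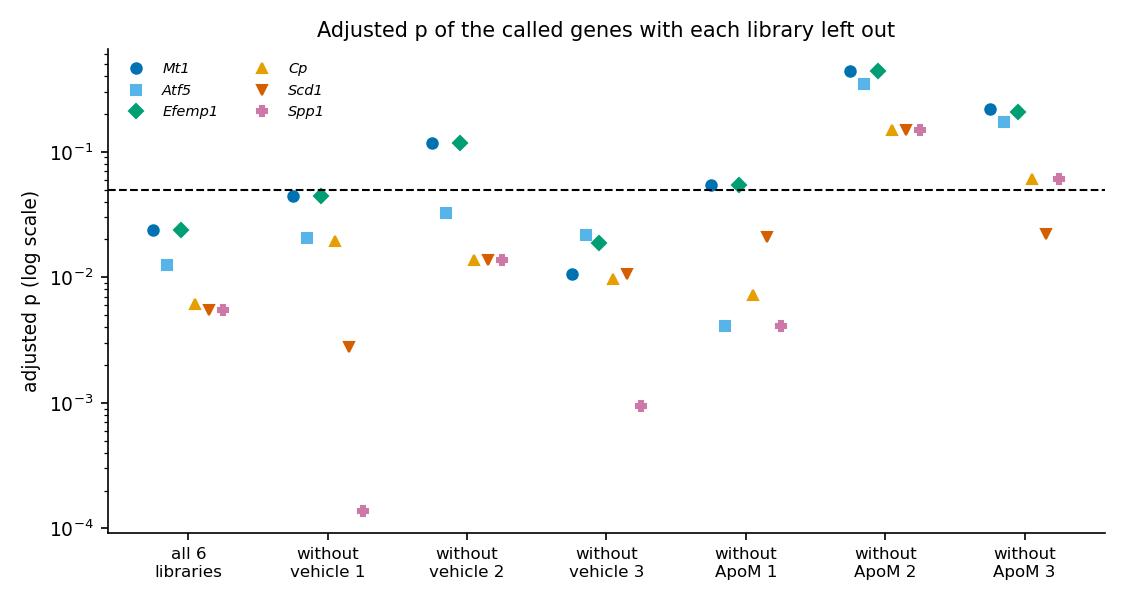
Adjusted p (log axis) of the 6 called genes from limma on all 6 libraries and with each library left out in turn; the dashed line is the threshold of 0.05. All 6 genes lie above the line without ApoM replicate 2, and Scd1 alone lies below it without ApoM replicate 3.

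The remaining 12 genes called by DESeq2, none of which passed with limma, included Cyp51, Hmox1, Anxa8, Chac1, Cdh13, Lpp, Cxcl10, Slc7a5, Flrt2, Adamts14 and Actg1. Anxa8, a calcium-dependent membrane-binding annexin, came nearest, with 73.3, 79.4 and 72.8 in vehicle and 91.7, 95.3 and 92.7 in ApoM libraries (log2 fold change 0.31, limma adjusted p = 0.143). Cdh13, a cadherin held by a lipid anchor, had 47.9, 50.1 and 65.4 with vehicle and 35.2, 39.8 and 41.3 with ApoM (log2 fold change -0.47, limma adjusted p = 0.183). In both genes the groups did not overlap, and for Cdh13 vehicle replicate 3 was the highest library, as it was for Spp1. Cxcl10, a chemokine induced by interferon, had 33.9, 30.4 and 41.7 with vehicle and 24.9, 21.3 and 27.5 with ApoM (log2 fold change -0.50), and Adamts14, a protease that trims procollagen, had 12.6, 12.7 and 16.7 with vehicle and 8.9, 8.31 and 9.54 with ApoM (log2 fold change -0.59). Adamts14 was among the 6 genes at an adjusted p under 0.05 in the authors' deposited table, which shared 5 with those called here and had Adamts14 in place of Spp1.

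Beyond single calls, whole pathways were described by counts of members and medians, without a set test. The members and lists were chosen with earlier results of these data known, so the counts describe the lists and are not independent support. For every list, the shares over all tested genes at an unadjusted p under 0.05 were 2.72% with higher and 2.74% with lower values. Genes of cholesterol synthesis and uptake had the largest share of members at an unadjusted p under 0.05 in 1 direction among the 39 lists. Of 27 tested members, 25 had a negative log2 fold change and 20 had an unadjusted p under 0.05 with lower values, against 2.74% of all tested genes. None was called with limma over all genes, and 1, Cyp51, with DESeq2. The median log2 fold change of the list was -0.26, a level 16.5% lower, where the median of all tested genes was -0.0010.

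At the head of the pathway, Hmgcs1, which makes HMG-CoA from acetyl groups, stood at 164, 184 and 199 with vehicle and 149, 132 and 169 with ApoM. Its groups overlapped, because vehicle replicate 1 was lower than ApoM replicate 3 (log2 fold change -0.28, 95% interval -0.45 to -0.11).

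Enzymes of the isoprenoid steps had larger differences. Idi1, the isopentenyl diphosphate isomerase, had 19.8, 25.1 and 26.5 with vehicle and 17.6, 12.4 and 18.8 with ApoM, without overlap, with ApoM replicate 2 the lowest (log2 fold change -0.54, 95% interval -0.82 to -0.25). Fdps, the farnesyl diphosphate synthase, had 67.6, 84.9 and 98.2 with vehicle and 61.7, 56.3 and 71 with ApoM, where vehicle replicate 1 fell between the ApoM libraries (log2 fold change -0.39). Mvk and Pmvk, the kinases just before these steps, differed little (log2 fold changes -0.10 and 0.094), and their 95% intervals ran from -0.29 to 0.085 and from -0.21 to 0.40.

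In the sterol part of the pathway, Sqle, the squalene epoxidase, had 86.5, 100.3 and 108 with vehicle and 77.1, 80.7 and 87.4 with ApoM (log2 fold change -0.26). Lss, which closes the sterol rings as lanosterol synthase, had 40.8, 43.3 and 47.8 with vehicle and 32.8, 33.6 and 38.9 with ApoM, without overlap (log2 fold change -0.32). Cyp51, the lanosterol demethylase, had 76.2, 88.5 and 91.5 with vehicle and 62.5, 60.8 and 74.2 with ApoM, also without overlap (log2 fold change -0.37, limma adjusted p = 0.24, DESeq2 adjusted p = 0.035). Later enzymes ranged from -0.37 for Nsdhl to -0.10 for Ebp, the sterol isomerase.

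Genes that control the pathway were not called either. Insig1, which holds the SREBP complex in the endoplasmic reticulum, had a log2 fold change of -0.27 and Srebf2, the gene of SREBP2 itself, -0.15. Scap, the sterol sensor that escorts SREBP2, did not share the pattern (0.041, 95% interval -0.088 to 0.17).

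The vehicle libraries themselves differed in this pathway by more than the shift. Relative to the vehicle mean, the list's median deviation was -0.15, 0.016 and 0.15 in vehicle replicates 1, 2 and 3, and -0.33, -0.33 and -0.14 in ApoM replicates 1, 2 and 3. ApoM replicate 3 therefore lay at the level of vehicle replicate 1, and the vehicle libraries spanned 0.30, against a median shift of 0.26. In vehicle replicate 1, 26 of 27 members were below the vehicle mean, and in ApoM replicates 1, 2 and 3, 26, 25 and 23 were. Members thus varied together from library to library, so their count is not a count of independent observations. Without ApoM replicate 2, 13 members had lower values at an unadjusted p under 0.05, against 1.98% of genes in that fit. Without vehicle replicate 3, 10 had, against 2.63%, and the list's median log2 fold change was -0.17. Over all the alternatives run the median stayed between -0.35 and -0.17.

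**Figure D3:**
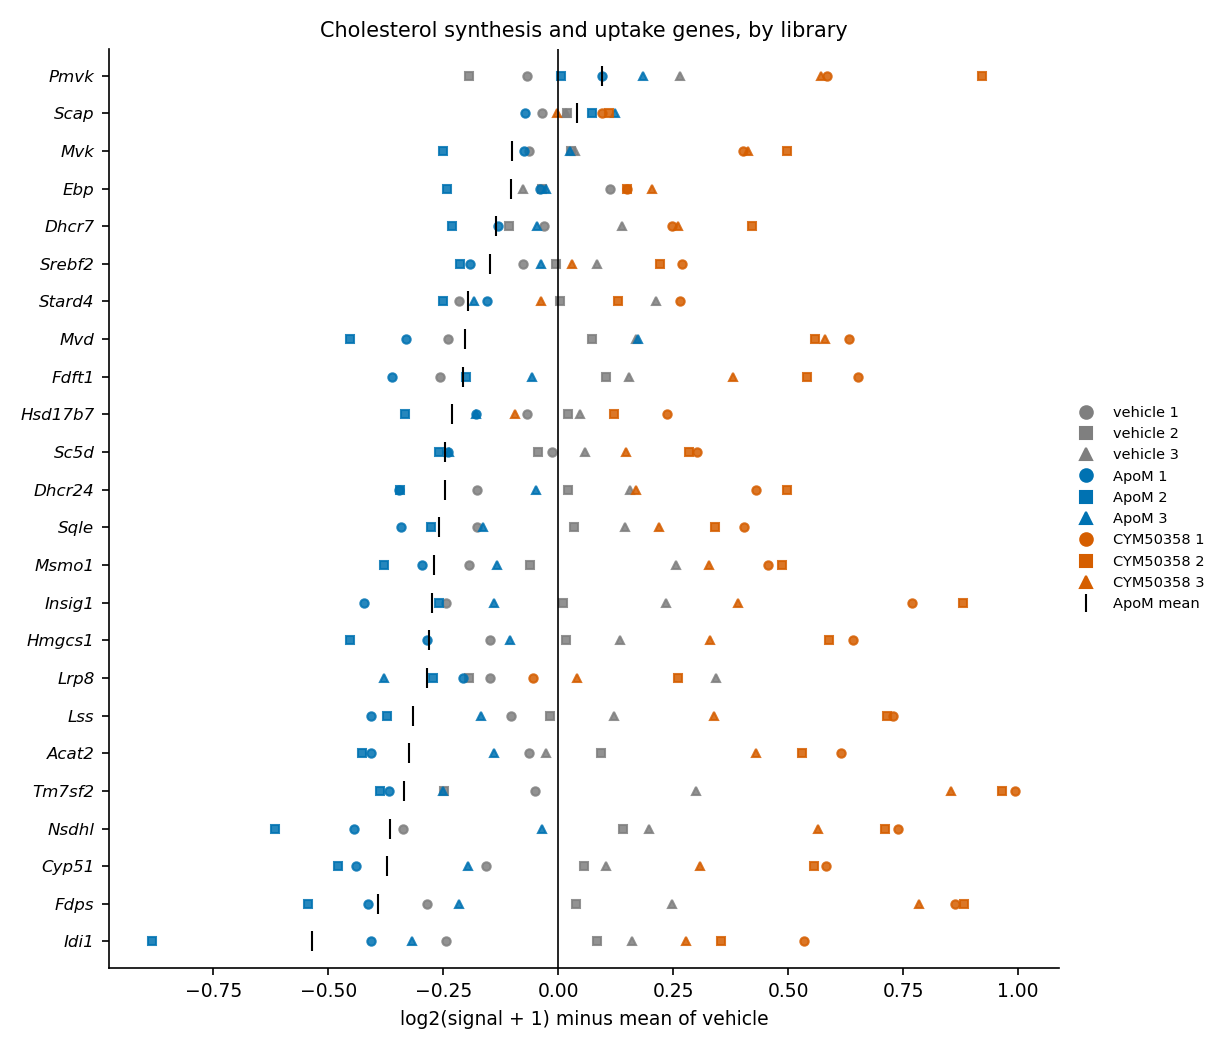
Deviation of log2(signal + 1) from the vehicle mean for 24 of the 27 tested genes of cholesterol synthesis and uptake, in each vehicle, ApoM and CYM50358 library (circle, square and triangle for replicates 1, 2 and 3; the black tick is the ApoM mean). ApoM replicates 1 and 2 lie left of most vehicle points, ApoM replicate 3 lies beside vehicle replicate 1, and CYM50358 libraries lie to the right.

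Promoters of 19 of the 27 tested members were found in the RefSeq table (GRCm38.p6, whose coordinates differ from the mm39 ones above), each covering 250 bases before to 50 after the start. They were searched on both strands for the sterol response element TCACNCCAC and the NF-Y box CCAAT, since SREBP2 binds next to NF-Y at its known targets. The sterol element was found in 1 of the 19 genes, Hmgcs1, and in 1.44% of all 27025 genes with a promoter. CCAAT was found in 16 of the 19, and in 41.1% of all genes, and it was also found in 21 of 26 genes of the G2 and M phase list. The promoters of Hmgcs1 (chr13:119690101-119690400, plus strand) and Idi1 (chr13:8885356-8885655, plus strand) are shown because both genes are textbook sterol-regulated enzymes of the list. Capitals mark both motifs in either orientation, none overlapping another.
Hmgcs1: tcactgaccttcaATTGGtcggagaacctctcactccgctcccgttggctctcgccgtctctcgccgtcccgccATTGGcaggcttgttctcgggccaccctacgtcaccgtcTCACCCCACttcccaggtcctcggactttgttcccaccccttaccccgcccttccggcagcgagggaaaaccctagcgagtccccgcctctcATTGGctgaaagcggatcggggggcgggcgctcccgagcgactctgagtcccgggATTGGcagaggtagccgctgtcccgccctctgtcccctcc
Idi1: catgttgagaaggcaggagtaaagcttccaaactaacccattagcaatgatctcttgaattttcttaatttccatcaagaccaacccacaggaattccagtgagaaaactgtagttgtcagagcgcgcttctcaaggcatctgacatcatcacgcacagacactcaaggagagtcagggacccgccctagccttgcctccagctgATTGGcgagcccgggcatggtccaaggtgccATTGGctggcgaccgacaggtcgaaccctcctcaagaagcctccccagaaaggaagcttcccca
In Hmgcs1 the capitals hold 1 sterol element and 4 NF-Y boxes, and in Idi1 2 NF-Y boxes; a match describes letters and not a bound factor.

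Fatty acid synthesis, which the related factor SREBP1 drives, was less affected beyond Scd1. Of 21 tested members, 5 had lower values at an unadjusted p under 0.05, against 2.74% of all tested genes, and 0 had higher ones. The median log2 fold change was -0.039. The count was 3 without ApoM replicate 2, ApoM replicate 3 or vehicle replicate 3, against 1.98%, 2.59% and 2.63% of genes in those fits. Elovl6, the elongase that supplies the substrate of the desaturase, had 30.8, 34.8 and 38.1 with vehicle and 25.2, 28.8 and 32.1 with ApoM (log2 fold change -0.26). Fasn, the fatty acid synthase, had 352, 357 and 370.0 with vehicle and 338, 323 and 329 with ApoM, a small difference without overlap (log2 fold change -0.12, 95% interval -0.24 to -0.012). Scd2, a near copy of Scd1 with which reads may be shared, differed less than Scd1 (-0.12, 95% interval -0.27 to 0.019). Srebf1 had a log2 fold change of -0.087 and the efflux and LXR list a median of -0.029 with 1 higher and 1 lower of 13.

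Among lipid droplet and triglyceride genes 4 of 17 had higher and 1 lower values at an unadjusted p under 0.05, with none called by limma. Over all tested genes the shares were 2.72% and 2.74%. The higher count was 1 without ApoM replicate 2 or 3 and 2 without vehicle replicate 1. Lpin1, a phosphatidate phosphatase of triglyceride synthesis, had 80.4, 72.4 and 74.8 with vehicle and 85.9, 90.0 and 89.4 with ApoM, without overlap (log2 fold change 0.22). Hilpda, an inhibitor of lipolysis, had 6.69, 6.86 and 7.48 with vehicle and 7.78, 9.57 and 10.3 with ApoM (log2 fold change 0.34). The lower member was Fabp5, a fatty acid carrier, at 29.3, 34 and 33.3 with vehicle and 25.3, 24.9 and 26.7 with ApoM (log2 fold change -0.32).

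Genes of the integrated stress response leaned the other way. Of 20 tested members 17 had a positive log2 fold change, 11 had higher values at an unadjusted p under 0.05 against 2.72% of all tested genes, and 8 stood above vehicle in each ApoM library against 5.45%. Atf5 was the member called. The list's median log2 fold change was 0.18, a level 13.5% higher. Its median deviation was 0.017, 0.070 and -0.11 in vehicle replicates 1, 2 and 3 and 0.15, 0.18 and 0.26 in the ApoM replicates. The libraries did not overlap in this measure, but the vehicle libraries spanned 0.178, against a median shift of 0.183. CYM50358 libraries had list medians of 0.025, 0.11 and 0.11 relative to the vehicle mean. In vehicle replicate 2, 19 of 20 members were above the vehicle mean, and in vehicle replicate 3, 18 were below it. Members thus varied together here too, so their count is not a count of independent observations.

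Atf4, the central transcription factor of the response, had 193, 213 and 182 with vehicle and 221, 234 and 228 with ApoM, without overlap (log2 fold change 0.22, 95% interval 0.088 to 0.34). Ddit3, which encodes CHOP, a transcription factor of prolonged stress, had 22, 23.1 and 21.5 with vehicle and 26.7, 29 and 29.4 with ApoM (log2 fold change 0.34). Ppp1r15a, which encodes GADD34, the phosphatase subunit that ends the response, had 66.4, 65.8 and 56.9 with vehicle and 71.7, 78.3 and 84.7 with ApoM (log2 fold change 0.31). Each of these had a group of ApoM libraries wholly above the vehicle group.

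Chac1, which degrades glutathione and is a target of ATF4 and CHOP, had 11.4, 12.4 and 10.8 with vehicle and 15.3, 18.1 and 16 with ApoM (log2 fold change 0.48, 95% interval 0.24 to 0.71, limma adjusted p = 0.371, DESeq2 adjusted p = 0.049). Trib3, a pseudokinase that feeds back on ATF4, had 10.9, 10.3 and 7.0 with vehicle and 10.8, 16.9 and 13.5 with ApoM, with overlap through vehicle replicate 1 and ApoM replicate 1 (log2 fold change 0.50). Other members did not share the pattern: Eif2ak3, the kinase PERK, had a log2 fold change of -0.004 and Ddit4 -0.012. Endoplasmic reticulum chaperones and XBP1 targets, which report the response of that organelle to unfolded proteins, had a median of -0.034 with 1 higher and 1 lower of 25.

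Amino acid synthesis, transport and one-carbon genes included 8 of 23 with higher and 0 with lower values at an unadjusted p under 0.05. The share with higher values was 2.72% over all tested genes, and the list's median log2 fold change was 0.12. Slc7a5, the large neutral amino acid transporter LAT1, had 106, 109 and 91.2 with vehicle and 123, 151 and 126 with ApoM, without overlap (log2 fold change 0.38, limma adjusted p = 0.183, DESeq2 adjusted p = 0.0168). Aldh1l2, a mitochondrial folate dehydrogenase, had 51.7, 55.4 and 32.9 with vehicle and 62.3, 76 and 68.2 with ApoM (log2 fold change 0.58, 95% interval 0.31 to 0.85). Its vehicle replicate 3 was far below the other vehicle libraries.

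Slc7a11, the cystine transporter, had 5.96, 3.84 and 3.52 with vehicle and 8.34, 8.28 and 4.96 with ApoM, with ApoM replicate 3 below vehicle replicate 1 (log2 fold change 0.59). Shmt2, the mitochondrial serine hydroxymethyltransferase, had 58.2, 70.8 and 66.3 with vehicle and 69.9, 81.1 and 83.5 with ApoM (log2 fold change 0.26), and Asns, the asparagine synthetase, 102, 111 and 96.1 with vehicle and 109, 126 and 114 with ApoM (log2 fold change 0.17). For both, the highest vehicle library lay above the lowest ApoM library. The list's median deviation was -0.0017, 0.095 and -0.056 in the vehicle libraries and 0.082, 0.18 and 0.12 in the ApoM libraries, so the groups overlapped at vehicle replicate 2 and ApoM replicate 1.

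Cytosolic aminoacyl-tRNA synthetases, which load tRNAs with amino acids, had 5 of 18 members higher and 0 lower at an unadjusted p under 0.05. Against this stood 2.72% of all tested genes with higher values, and the list's median was 0.064. The higher count was 2 without vehicle replicate 1, vehicle replicate 3 or ApoM replicate 2 and 3 without ApoM replicate 1 or 3. The library medians overlapped between the groups. Sars1, the seryl-tRNA synthetase, had 226, 235 and 207 with vehicle and 248, 259.7 and 254 with ApoM (log2 fold change 0.19), and Yars1, the tyrosyl-tRNA synthetase, 60.8, 65.2 and 59.3 with vehicle and 68, 75.2 and 70.8 with ApoM (log2 fold change 0.20). Both were without overlap, and neither was called.

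Counts in these lists also depended on the libraries. Without ApoM replicate 2 the count at an unadjusted p under 0.05 with higher values was 8 of 20 for the stress response and 5 of 23 for the amino acid list, against 1.82% of genes in that fit. Without vehicle replicate 3, which had the lowest stress response levels, they were 7 and 6, against 2.31%. The stress response median stayed between 0.16 and 0.24 over all alternatives run and the amino acid median between 0.091 and 0.16.

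**Figure D4:**
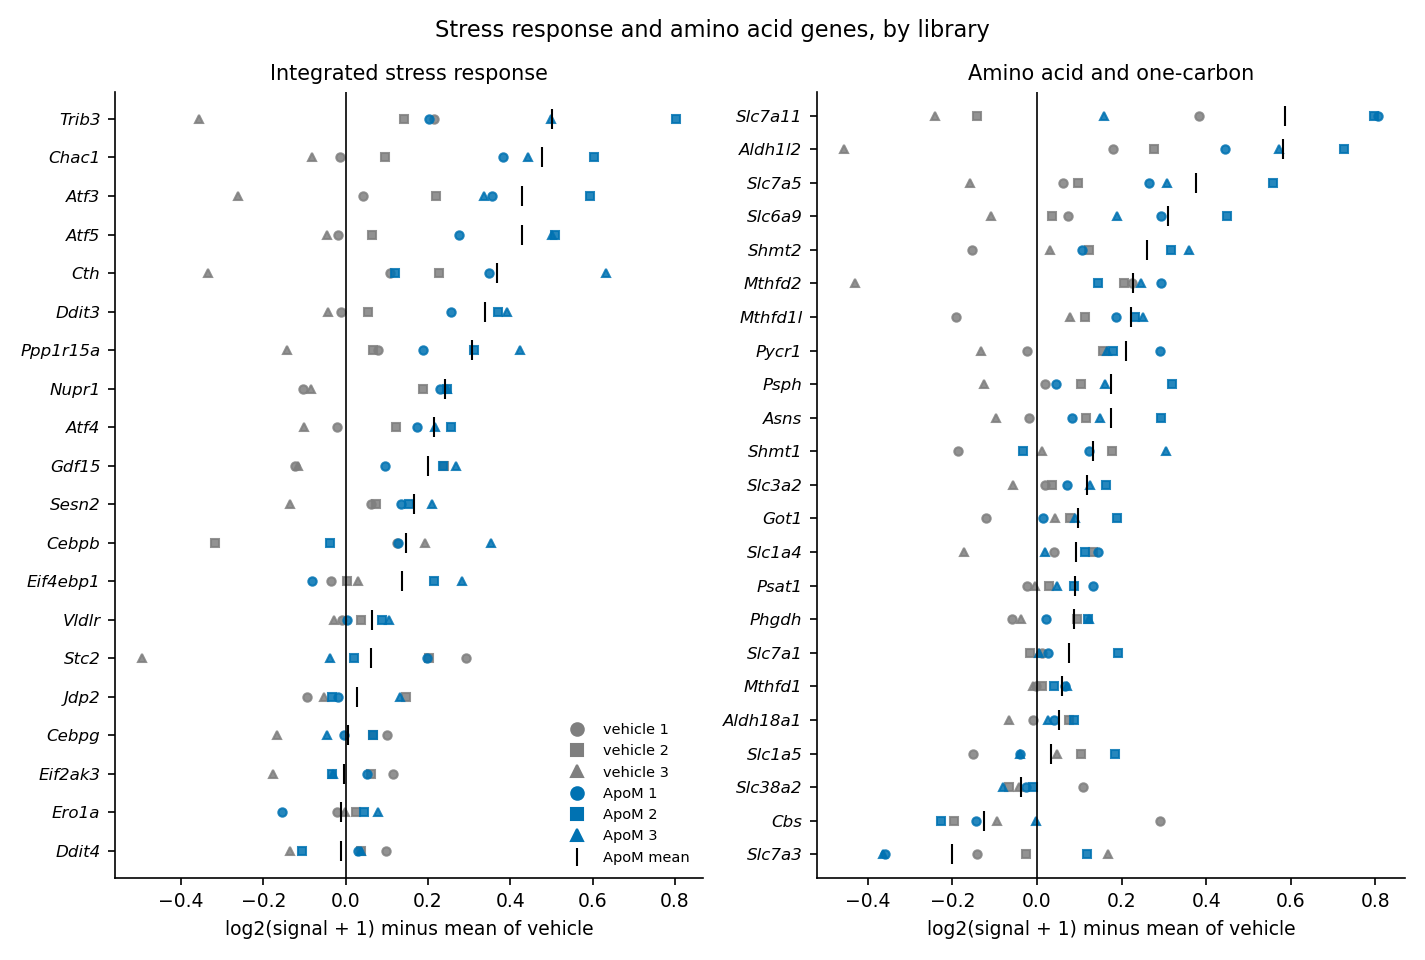
Deviation of log2(signal + 1) from the vehicle mean for the 20 tested integrated stress response genes (left) and the 23 amino acid and one-carbon genes (right), in each vehicle and ApoM library (circle, square and triangle for replicates 1, 2 and 3; the black tick is the ApoM mean). ApoM points lie to the right for Chac1, Atf5, Ddit3, Ppp1r15a and Atf4, and vehicle replicate 3 is the leftmost vehicle library for many members.

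The composite element TGATGNAA, which pairs C/EBP and ATF proteins such as ATF4, was found in the promoters of 6 of 18 stress response genes (Atf3, Chac1, Jdp2, Nupr1, Trib3 and Vldlr) and of 5 of 19 amino acid genes (Asns, Got1, Pycr1, Slc1a4 and Slc7a11), against 4.51% of all genes. Of these, Jdp2, Vldlr, Got1, Pycr1 and Slc1a4 did not reach an unadjusted p under 0.05. The Chac1 promoter (chr2:119350992-119351291, plus strand, GRCm38.p6, RefSeq) is shown as a member with both the motif and a difference without overlap, with its 1 match, on the opposite strand, in capitals.
Chac1: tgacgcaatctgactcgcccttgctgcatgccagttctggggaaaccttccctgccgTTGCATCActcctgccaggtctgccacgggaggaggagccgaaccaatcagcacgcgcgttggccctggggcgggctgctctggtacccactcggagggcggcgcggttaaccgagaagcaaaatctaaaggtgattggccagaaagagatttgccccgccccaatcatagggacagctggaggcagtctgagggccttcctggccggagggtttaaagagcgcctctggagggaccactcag

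Oxidant response genes leaned to higher values, and genes of metal binding and transport went both ways. Of 25 tested NRF2 targets and glutathione genes 22 had a positive log2 fold change, with a median of 0.062. At an unadjusted p under 0.05, 5 had higher values, against 2.72% of all tested genes, and 0 lower ones. The higher count was 3 without vehicle replicate 3, against 2.31% of genes in that fit. Relative to the vehicle mean, list medians were 0.044, 0.070 and 0.12 in ApoM and 0.086, 0.14 and 0.17 in CYM50358 libraries, so both agents leaned the same way. Hmox1, the heme oxygenase, had 97.5, 104 and 94.5 with vehicle and 116, 116 and 121 with ApoM, without overlap (log2 fold change 0.25, limma adjusted p = 0.349, DESeq2 adjusted p = 0.0385). Srxn1, a sulfiredoxin that repairs peroxiredoxins, had 27.4, 24.8 and 26.9 with vehicle and 30.6, 29.7 and 32.3 with ApoM (log2 fold change 0.22). Nqo1, a classic NRF2 target, differed by less than its spread (0.18, 95% interval -0.063 to 0.42).

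In the metal list 2 of 22 members were called, Mt1 higher and Cp lower, and 11 members had positive and 11 negative log2 fold changes, with a median of -0.0059. Mt2, the neighbour and paralog of Mt1, had 8.3, 11.5 and 11.3 with vehicle and 11.9, 15.7 and 18.2 with ApoM, without overlap (log2 fold change 0.51, 95% interval 0.20 to 0.82, limma adjusted p = 0.484). The mature transcripts are short and similar, so reads could be split between the paralogs by the authors' counting. Slc30a1, a zinc exporter that metal also induces, had 16.3, 18 and 17 with vehicle and 21.4, 18.2 and 20.6 with ApoM (log2 fold change 0.21). Sod1, the copper-zinc superoxide dismutase, had a log2 fold change of 0.11.

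The metal response element TGCNCNC, the core that the zinc sensor MTF1 binds, matched 53.6% of all genes' promoters and is shown for Mt1 because the gene was called. Its promoter (chr8:94178839-94179138, plus strand, GRCm38.p6, RefSeq) held 3 matches on the same strand, in capitals.
Mt1: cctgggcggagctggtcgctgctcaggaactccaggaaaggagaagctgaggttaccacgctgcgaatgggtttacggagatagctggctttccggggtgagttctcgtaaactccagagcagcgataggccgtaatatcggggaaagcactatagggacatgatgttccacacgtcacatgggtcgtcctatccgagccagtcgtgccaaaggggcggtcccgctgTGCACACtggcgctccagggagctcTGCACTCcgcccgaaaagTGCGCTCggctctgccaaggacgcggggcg
Of the other called genes, Atf5, Cp, Efemp1 and Spp1 were in the promoter table and Scd1 is named only. Cp and Spp1, which fell, also held matches to the metal response element. Spp1 held a sterol response element as well, and NF-Y boxes were found in Atf5, Cp and Spp1.

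Protease genes tended to lower values, and matrix genes did so less steadily. Of 31 tested fibrillar and interstitial matrix genes, 5 had lower values at an unadjusted p under 0.05, against 2.74% of all tested genes, and 0 higher ones. Spp1 and Efemp1, both called, are members. The lower count was 3 without ApoM replicate 2 and 8 without vehicle replicate 3, and the library medians overlapped between the groups. Relative to the vehicle mean, list medians were 0.015, -0.082 and -0.085 in ApoM and -0.024, -0.185 and -0.165 in CYM50358 libraries. Col3a1, the gene of collagen III, had 184, 154 and 139 with vehicle and 143, 116 and 119 with ApoM (log2 fold change -0.33, 95% interval -0.52 to -0.15, limma adjusted p = 0.439), and ApoM replicate 1 overlapped vehicle replicate 3. Col6a1, of collagen VI, had 549, 478 and 407 with vehicle and 479, 372 and 390.4 with ApoM (log2 fold change -0.21). Col5a2 leaned the other way (0.15, 95% interval -0.0075 to 0.30).

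Of 27 proteases and inhibitors 8 stood below vehicle in each ApoM library, against 5.22% of all tested genes. At an unadjusted p under 0.05, 6 had lower and 1 higher values, against 2.74% and 2.72% of all tested genes. The median was -0.074 and the library medians did not overlap. Relative to the vehicle mean, list medians were -0.044, -0.11 and -0.060 in ApoM and -0.062, -0.10 and -0.12 in CYM50358 libraries. The lean was thus not particular to ApoM. Besides Adamts14, members with lower values after ApoM included Timp1, an inhibitor of metalloproteinases, at 56.3, 58.1 and 59.1 with vehicle and 50.3, 40.9 and 49.2 with ApoM (log2 fold change -0.31). Adamts2, a procollagen N-proteinase like Adamts14, had 20.6, 20.8 and 19.4 with vehicle and 15.5, 16.4 and 14.8 with ApoM (log2 fold change -0.36). Adamts1, which cleaves proteoglycans, had 692, 641 and 657 with vehicle and 590.2, 538 and 601 with ApoM (log2 fold change -0.20). Mmp15, a membrane metalloproteinase, was the member with higher values (0.23), with vehicle replicate 3 far below the rest at 130.0, 126 and 92.2.

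Of 37 actin and focal adhesion genes, 11 had lower and 1 higher values at an unadjusted p under 0.05, against 2.74% of all tested genes with lower values, and 5 stood wholly below vehicle, against 5.22%. The lower count was 2 without ApoM replicate 2, 5 without ApoM replicate 1 or vehicle replicate 2, and 6 without vehicle replicate 3. The median was -0.053, and the library medians overlapped between the groups. Relative to the vehicle mean, list medians were -0.090, -0.12 and -0.018 in ApoM and -0.11, -0.17 and -0.12 in CYM50358 libraries, so both agents leaned the same way. Actg1, the cytoplasmic gamma actin, had 2075, 2190.4 and 2298 with vehicle and 1892, 1913 and 1877 with ApoM, without overlap (log2 fold change -0.21, limma adjusted p = 0.701, DESeq2 adjusted p = 0.0237); its reads are hard to tell from those of near copies. Cnn1, the smooth-muscle calponin, had 85.9, 98.9 and 79 with vehicle and 78.9, 67.1 and 68.4 with ApoM (log2 fold change -0.29), and Tagln, also called SM22, 2280.5, 2663 and 2688 with vehicle and 2152, 1979 and 2324 with ApoM (log2 fold change -0.24). Actb had a log2 fold change of -0.16 (95% interval -0.37 to 0.042) and Gapdh, a glycolytic enzyme often used as a reference, -0.073 (95% interval -0.23 to 0.087). Moreover, the 3 contractile and fibroblast markers Col3a1, Tagln and Acta2 had lower values at an unadjusted p under 0.05, of 8 tested. Of those 8, however, 4 had positive and 4 negative log2 fold changes, the median was -0.0073, and the count was 1 without ApoM replicate 2. The part of those markers in the actin and matrix differences was not tested; in bulk RNA, fewer cells of a type and less RNA per cell cannot be told apart.

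Receptors for S1P were few. S1pr2 and S1pr3, which act on actin contraction, had the readable levels. S1pr2 had 38.8, 37.8 and 41.5 with vehicle and 34, 29.2 and 33.1 with ApoM, without overlap (log2 fold change -0.29, 95% interval -0.46 to -0.12, limma adjusted p = 0.47). S1pr3 had 13.1, 14 and 17.8 with vehicle and 13.5, 10.8 and 10.3 with ApoM, where ApoM replicate 1 overlapped vehicle (log2 fold change -0.35, limma adjusted p = 0.77). S1pr1, a receptor of the endothelial response to ApoM-bound S1P, was near the detection filter at 0.531, 1.31 and 1.3 with vehicle and 0.788, 0.334 and 1.41 with ApoM (95% interval -0.65 to 0.32).

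S1pr4, the target of CYM50358, had 0 reads in each vehicle library and 7, 16 and 0 in the ApoM libraries, and S1pr5 had 11 reads in ApoM replicate 3 and 0 in the other libraries. A count of 0 allows up to 3 reads, a signal of 0.0387 to 0.0526 in these libraries; this limit covers counting error only. Apom itself had 0, 5 and 1 reads with vehicle and 0, 0 and 11 with ApoM. Sphk1, a kinase that makes S1P, had 3.74, 4.21 and 4.9 with vehicle and 3.09, 2.29 and 3.32 with ApoM (log2 fold change -0.44), whereas Sphk2 had a log2 fold change of 0.077 (95% interval -0.093 to 0.25). Spns2, an exporter of S1P, stayed within its spread (-0.034, 95% interval -0.15 to 0.086). Of 15 tested members 3 had lower values at an unadjusted p under 0.05, against 2.74% of all tested genes, and 0 higher ones, none called by limma. The lower count was 1 without ApoM replicate 2 or vehicle replicate 3 and 5 without vehicle replicate 1, and the median moved from -0.038 to -0.11 without vehicle replicate 1.

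The HDL receptor Scarb1, a possible partner of ApoM-carrying particles, had 52.1, 50.5 and 53.1 with vehicle and 46.7, 47.5 and 47.6 with ApoM, without overlap (log2 fold change -0.13, 95% interval -0.27 to 0.0073). Lrp2 encodes megalin, which takes up ApoM in the kidney tubule. It had 206, 173 and 177 with vehicle and 179, 190.4 and 172 with ApoM, fully overlapping (log2 fold change -0.035, 95% interval -0.18 to 0.10).

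Collagen IV partners of the deleted chain were not called. Col4a4 had 276, 273 and 177 with vehicle and 327, 284 and 239.8 with ApoM, with vehicle replicate 3 far below the rest (log2 fold change 0.24, 95% interval -0.015 to 0.50). Col4a5 had 1196, 1169 and 952 with vehicle and 1192, 1022 and 990.0 with ApoM (log2 fold change -0.048, 95% interval -0.23 to 0.13). In both genes the spread within a group exceeded the difference between groups. Of 22 basement membrane genes 1, Lama1, a laminin chain, had an unadjusted p under 0.05, at 8.27, 9.5 and 5.43 with vehicle and 6.56, 5.07 and 2.61 with ApoM (log2 fold change -0.64).

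Podocyte genes differed little as a list, with a median of -0.030. Of 20 slit diaphragm and foot process genes 2 had lower and 0 higher values at an unadjusted p under 0.05. Over all tested genes, 2.74% had lower values at that threshold. Synpo, which encodes the actin-binding synaptopodin of foot processes, had 299.8, 319 and 286 with vehicle and 303, 323 and 329 with ApoM (log2 fold change 0.079, 95% interval -0.043 to 0.20). Podxl, the charged surface protein podocalyxin, had 18.3, 12.8 and 11.7 with vehicle and 13.3, 8.57 and 9.73 with ApoM, with vehicle replicate 1 highest (log2 fold change -0.40). Mme, which encodes the peptidase neprilysin, had 32.2, 35.4 and 34.4 with vehicle and 28.6, 26.6 and 24.8 with ApoM, without overlap (log2 fold change -0.34, limma adjusted p = 0.414).

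Cell cycle lists had negative medians with few members at an unadjusted p under 0.05. The G2 and M phase list had a median of -0.090 with 1 higher and 2 lower of 30, and the S phase list -0.076 with 0 higher and 2 lower of 31. These counts stand against 2.72% of all tested genes with higher and 2.74% with lower values. With 1 library left out, the lower count was between 1 and 5 in each list. Top2a, the topoisomerase of dividing cells, had 9.61, 9.61 and 11.4 with vehicle and 7.71, 6.71 and 7.08 with ApoM (log2 fold change -0.45), and Uhrf1, which maintains DNA methylation in S phase, 6.71, 6.03 and 6.92 with vehicle and 4.97, 3.27 and 4.01 with ApoM (log2 fold change -0.58). Both were without overlap at a low level, while Cenpf, a kinetochore protein, had 1.08, 0.771 and 1.06 with vehicle and 1.87, 1.94 and 1.83 with ApoM, in the opposite direction. Vehicle libraries spanned 0.22 in the median of the G2 and M phase list.

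Of 23 p53 targets and CDK inhibitors 20 had a positive log2 fold change. At an unadjusted p under 0.05, 3 had higher values, against 2.72% of all tested genes, and 0 lower ones. The higher count was 6 without vehicle replicate 1 or 2, and 2 without vehicle replicate 3 or ApoM replicate 3. Vehicle replicate 3 was the low library of this list (median deviation -0.0862, against 0.0407 and 0.0415). Cdkn1a, the inhibitor p21, had 1079.7, 1098 and 949 with vehicle and 1186, 1121 and 1209.7 with ApoM (log2 fold change 0.17), and Btg2, an antiproliferative p53 target, 204, 184 and 172 with vehicle and 225, 205 and 215 with ApoM (log2 fold change 0.21). The 11 tested mitochondrially encoded genes had a median of 0.10 with none at an unadjusted p under 0.05, and vehicle replicate 2 was the low library (-0.12, against 0.027 and 0.12).

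Interferon and NF-kB genes had no common direction. Cxcl10 had lower values, whereas Ifit2, an interferon-induced RNA-binding protein, had 49.1, 46.3 and 47.7 with vehicle and 55, 52.5 and 59 with ApoM (log2 fold change 0.21). Of 25 interferon genes 3 had higher and 2 lower values at an unadjusted p under 0.05, against 2.72% and 2.74% of all tested genes. With 1 library left out, between 1 and 4 had higher and between 1 and 2 lower values. Nuclear oxidative phosphorylation (median -0.023), ribosomal protein (0.012), sphingolipid (-0.029), YAP/TAZ (0.0024) and TGF-beta lists (-0.028) lay close to the median of all tested genes. In the TGF-beta list, however, 4 of 28 members had lower and 1 higher values at an unadjusted p under 0.05. Wholly below vehicle were 5 and wholly above it 1, against 5.22% and 5.45% of all tested genes. The lower count was 2 without ApoM replicate 2 or 3.

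**Figure D5:**
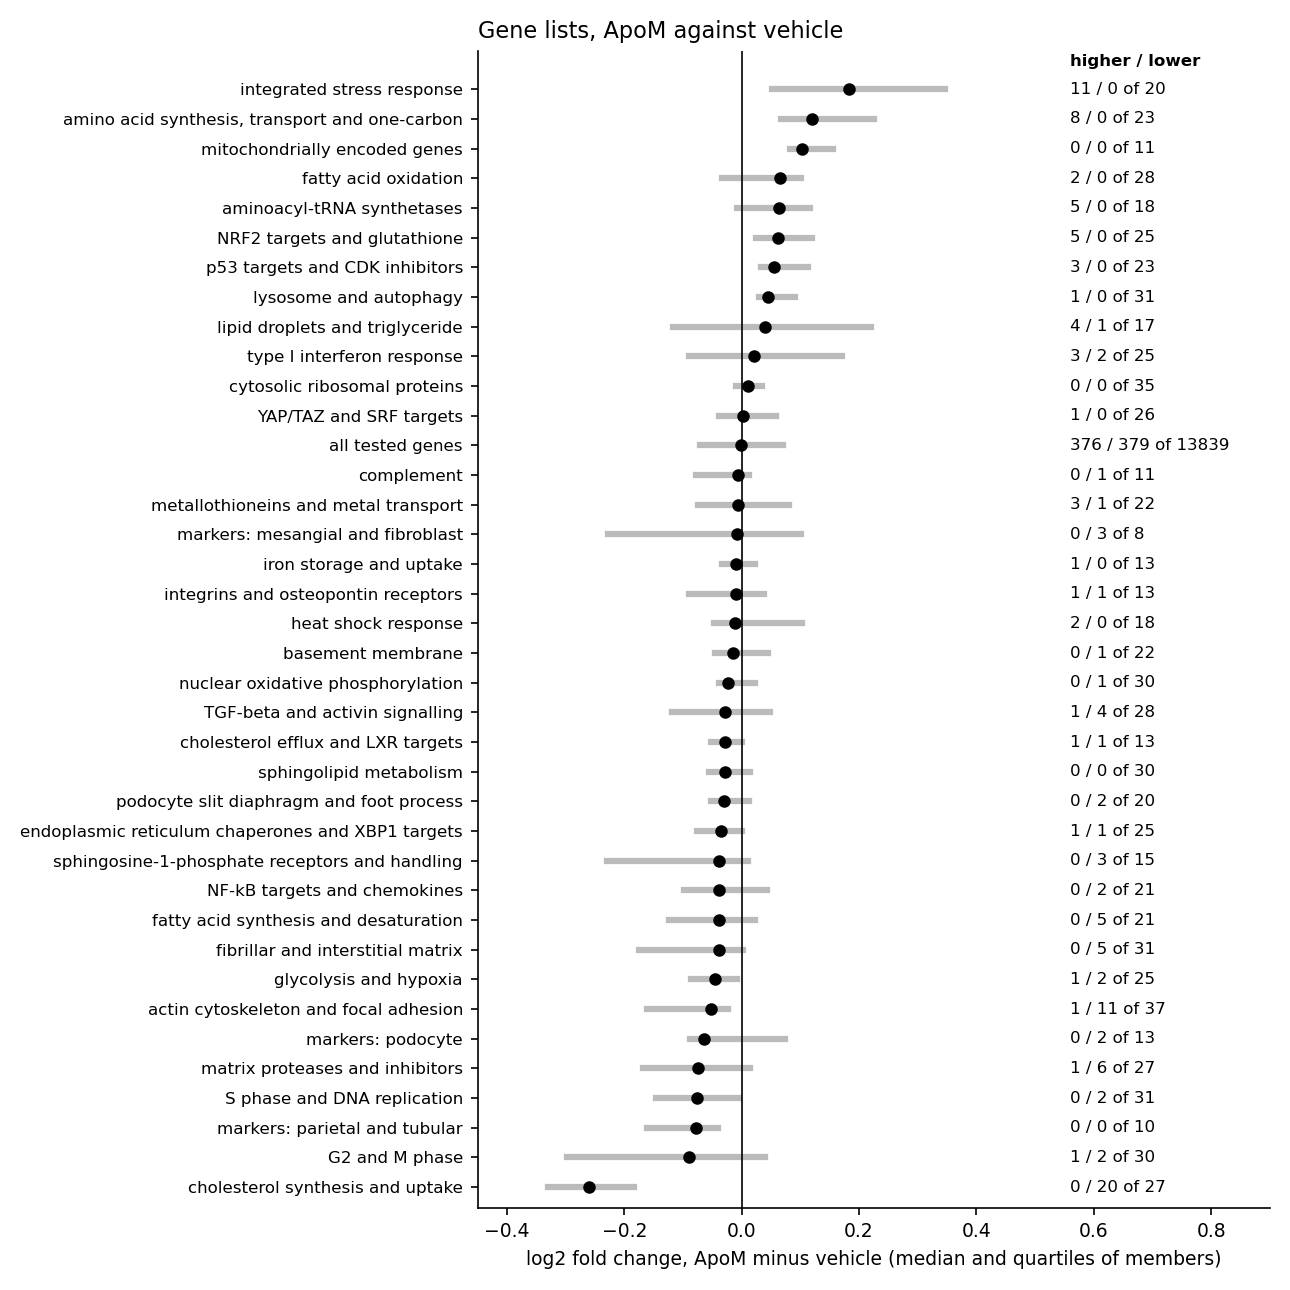
Log2 fold change, ApoM minus vehicle, as the median (point) and quartiles (bar) over the tested members of each list with at least 5 members, ordered by median; the numbers give members with higher and lower values at an unadjusted p under 0.05, of those tested. Cholesterol synthesis and uptake (0 and 20 of 27) and the integrated stress response (11 and 0 of 20) stand at the ends, and all tested genes are near 0.

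Several genes outside the lists had small p-values or large folds in the fit, or a DESeq2 call, without reaching the threshold with limma. Those with higher values were Zfpm1, a GATA cofactor (0.32), Peg10, an imprinted gene (0.29), Ptp4a3, a phosphatase (0.33), Vnn1, a pantetheinase (0.35), and Bri3 (0.48). Those with lower values included Flrt2, a cell adhesion and guidance protein (-0.31), and Lpp, a focal adhesion protein (-0.23). Bri3 had 25.4, 29.2 and 31.1 with vehicle and 32.8, 37.2 and 52.8 with ApoM, with ApoM replicate 3 far above its group. Adjusted p-values with limma were 0.26 to 0.44 for these genes.

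The ApoM and CYM50358 libraries share the vehicle libraries as their control, so the agents were compared with each other directly. Of 13878 genes 360 were called between them, 2.59% of those tested, with 1.22% higher and 1.37% lower in ApoM. With the replicate number as a block, 1174 were called, 8.46%, with 4.83% higher and 3.62% lower in ApoM. Same-numbered libraries of these groups correlated at only 0.132, 0.115 and 0.132, and differently numbered ones at -0.108 to -0.013. The labels name no shared culture. The pairing is therefore assumed, and counts with the block rest on it, while those without the block do not. Of the 6 genes called against vehicle, Atf5 was higher in ApoM than in CYM50358 libraries (log2 difference 0.40, SE 0.081, limma adjusted p = 0.0088). Spp1 (-0.78), Scd1 (-1.64) and Efemp1 (-0.36) were lower, with limma adjusted p-values of 8.12e-05, 4.28e-10 and 0.009.

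Mt1 was lower in ApoM than in CYM50358 libraries, which measured 65.8, 75.5 and 83.6 (log2 difference -0.70, limma adjusted p = 1.79e-05). The vehicle libraries, at 32.1, 30.9 and 35.1, were below those of both agents. Cp differed by -0.33, which limma called with the replicate block (adjusted p = 0.0033) and not without it (adjusted p = 0.0922).

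Of the 39 lists, that of cholesterol genes had the largest median difference between the agents. Of the 27 members 22 were lower in ApoM than in CYM50358 libraries, against 1.37% of all tested genes, and 0 higher. With the block 25 were lower, against 3.62%. The median log2 difference was -0.69. Fdps had 61.7, 56.3 and 71 with ApoM and 151, 153 and 143 with CYM50358 (log2 difference -1.23, limma adjusted p = 4.47e-10). The vehicle mean lay between those of the agents. The CYM50358 libraries had list medians of 0.46, 0.50 and 0.31 above the vehicle mean. Of 21 fatty acid synthesis genes 10 were lower and 1 higher in ApoM, against 1.37% and 1.22% of all tested genes.

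Amino acid and one-carbon genes were higher in ApoM than in CYM50358 libraries for 11 of 23 members and lower for 0. Over all tested genes 1.22% were higher and 1.37% lower. The list's median log2 difference was 0.34. Psat1, a serine synthesis enzyme, had 90.7, 94 and 91.8 with vehicle, 101, 98.1 and 95.2 with ApoM and 63.1, 64.7 and 60.5 with CYM50358 (log2 difference 0.64, limma adjusted p = 2.50e-06). Aldh1l2 was 28, 37.1 and 27 with CYM50358 (log2 difference 1.15, limma adjusted p = 3.86e-07). For stress response genes the agents differed at 2 of 20 members, Atf5 higher and Cebpb lower in ApoM. With the block 3 were higher and 1 lower, against 4.83% and 3.62% of all tested genes. Ddit3 did not pass (-0.22, 95% interval -0.43 to -0.021), and its CYM50358 libraries, at 28.6, 37.8 and 34.2, were also above vehicle.

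Lysosome and autophagy genes were lower in ApoM than in CYM50358 libraries for 16 of 31 members and higher for 0. Over all tested genes 1.37% were lower and 1.22% higher. Hexa, a lysosomal hexosaminidase subunit, had 93.6, 103 and 101 with ApoM and 126, 134 and 130.5 with CYM50358 (log2 difference -0.39, limma adjusted p = 0.00065), against 91.1, 102 and 96.9 with vehicle. Against vehicle, 26 of 31 members had positive log2 fold changes after ApoM, with a median of 0.046 and 1, Sqstm1, an autophagy receptor, at an unadjusted p under 0.05 (0.20). Fatty acid oxidation genes were higher in ApoM than in CYM50358 libraries for 7 of 28, against 1.22%, and lower for 0. Pdk4, a kinase that spares glucose when fatty acids are burned, had 92.4, 90.8 and 130.3 with vehicle, 105, 119 and 113 with ApoM and 50.1, 59.7 and 43.1 with CYM50358 (log2 difference 1.13, limma adjusted p = 4.58e-08). Basement membrane genes were higher in ApoM than in CYM50358 libraries for 6 of 22, against 1.22% of all tested genes, and lower for 0. Among the 6 was Col4a4 (log2 difference 0.53, limma adjusted p = 0.00024). With the block 13 were higher, against 4.83% of all tested genes, and 0 lower. Against vehicle, the list did not rise after ApoM: the median was -0.015, with 0 higher and 1 lower at an unadjusted p under 0.05. The CYM50358 libraries had list medians of -0.12, -0.17 and -0.21 relative to the vehicle mean.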

How the data were processed

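RNA of cultured mouse podocytes was sequenced after preparation with an mRNA kit. The submitters' processing notes name STAR, Trim Galore, FastQC, edgeR and mm39. Versions, settings and use of strand in counting: not given in the sources used here. Values of genes that overlap, lie antisense or have close copies are therefore uncertain. The authors deposited a signal per gene and library, a scaled CPM by its values, together with log2 fold changes, p-values and adjusted p-values from a test of their own. Whole reads were recovered from 100% of signal values (tolerance 0.01).

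As the unit is signal, limma (3.58.1, R 4.3.3) with a trend was fitted to log2(signal + 1), 3 ApoM against 3 vehicle libraries, keeping genes that reached 0.5 in at least 3 libraries; p-values were adjusted by Benjamini-Hochberg and genes under 0.05 were called. Fold changes are on that scale, which understates low genes. edgeR (4.0.16) and DESeq2 (1.42.0) were run on recovered reads as alternatives, with the settings listed in the closing section. The fits were tested on simulated data. The vehicle columns of both treatment tables were identical, so ApoM and CYM50358 libraries were compared directly, without a block in the main fit. Their same-numbered libraries had correlations of 0.132, 0.115 and 0.132, and differently numbered ones of -0.108 to -0.013. The numbers, from the sample titles, were taken to pair them only in the alternative fit with the replicate number as a block. Genes named are those called here (up to 10 a direction), those called by edgeR, DESeq2 or the authors' table, the 10 smallest p-values each way and the 5 largest folds each way at an unadjusted p under 0.05 among genes above the median level, a fixed set (collagen IV chains, S1P and lipid receptors, Apom, Mt2, Atf4, Actb, Gapdh), and by p up to 8 members of the 8 lists with the largest absolute medians and up to 3 of each other list; other members were named after their values were seen. Lists held 919 genes, of which 1 was not matched. The members and lists were chosen with earlier results of these data known. Some members are counted in their lists but not reported here by name.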

Additional observations from a re-analysis of the deposited data

How the results depend on the processing

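For ApoM against vehicle, the count of 6 called genes was 18 with DESeq2, 3 with edgeR, and 0 with all 9 treatment libraries in 1 fit, without a filter on low values or without a trend in limma. It was 6 with pseudocounts of 0.1 or 0.5, a filter at 5, TMM scaling, limma-voom and reads thinned to 57735687 per library, and between 0 and 12 with 1 library left out. At an unadjusted p under 0.05, edgeR had 760 genes and DESeq2 1018. Same-numbered vehicle and ApoM libraries had correlations of 0.135, -0.122 and 0.092, and not every library correlated best with its own number, so the numbers were not taken to pair them; with the replicate number as a block 17 genes were called. For ApoM against CYM50358 the count of 360 was 1174 with the replicate block, 591 with DESeq2, 214 with edgeR, 348 at a pseudocount of 0.1, and between 130 and 542 with 1 library left out. The causes were not tested. With 1 library left out, some uncalled log2 fold changes changed sign: Eif2ak3 ranged from -0.092 to 0.0535 (0.0032 when thinned), Ddit4 from -0.0796 to 0.0368, Col4a5 from -0.1518 to 0.0128, Hexa from -0.0054 to 0.0779, Lrp2 from -0.0835 to 0.0436, Pmvk from -0.0033 to 0.2267, S1pr1 from -0.38 to 0.0433 and Scap from -0.0003 to 0.0979. Of 39 list medians 15, which lay between -0.078 and 0.0207, took the other sign under at least 1 alternative, 12 of them with 1 library left out, at -0.0306 to 0.0511. These 12 were the LXR, integrin, TGF-beta, basement membrane, NF-kB, heat shock, metal, iron, nuclear oxidative phosphorylation, ribosomal protein, YAP/TAZ and contractile and fibroblast lists. The interferon (-0.0602), complement (0.0025) and endothelial (0.0973) medians did so with the filter at 5. The leukocyte list had no member past the filter at 5, so it has no median there. Depth limits S1pr1, S1pr4, S1pr5 and Apom, which are near or under the filter of 0.5.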

Other observations

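The 6 genes called between ApoM and vehicle also had levels in vehicle libraries of Col4a3+/+ and Col4a3-/- podocytes in the other, separately normalized table; these are given as values, with no comparison across tables. In the order replicate 1, 2 and 3, Spp1 was 1693, 848 and 968 in Col4a3+/+ and 241, 182 and 221 in Col4a3-/- libraries, and Cp was 330.4, 246 and 276 in Col4a3+/+ and 90.7, 85.1 and 78.2 in Col4a3-/- libraries. Scd1 was 58.1, 76.5 and 68.6 in Col4a3+/+ and 100.3, 105 and 101 in Col4a3-/- libraries, Efemp1 22.4, 31.6 and 25.6 in Col4a3+/+ and 57.3, 52.3 and 46.8 in Col4a3-/- libraries, Atf5 49.8, 67.7 and 71.1 in Col4a3+/+ and 92.8, 96.8 and 89.2 in Col4a3-/- libraries, and Mt1 8.95, 11.4 and 8.25 in Col4a3+/+ and 11.6, 9.68 and 11.4 in Col4a3-/- libraries. In these libraries Spp1 and Cp stood higher, and Scd1, Efemp1 and Atf5 lower, in Col4a3+/+ than in Col4a3-/- podocytes. These differences were not tested here.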
